A study of Rattus norvegicus with 6 samples.

Results

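The genes of the circadian clock were followed in nuclei of the rat ileum, the last stretch of the small intestine, in severe acute pancreatitis. Members were chosen by name, 10 of the 28282 gene symbols in the count tables. They were Clock, Npas2 and Bmal1, which encode the activating transcription factors, Per1, Per2, Per3, Cry1 and Cry2, which encode the proteins that block them, and Nr1d1 and Nr1d2, which encode the repressors REV-ERBα and REV-ERBβ. The tables wrote Bmal1 under that symbol, and no row was named Arntl. All 10 were detected in every library, from 506 UMIs of Nr1d1 to 31513 UMIs of Npas2 over all nuclei, a UMI being a molecular tag that marks 1 counted RNA molecule.

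The nuclei came from 6 male wild-type Sprague-Dawley rats, 3 CON and 3 SAP, with 1 library per rat. The rats were 6 weeks old when obtained and were acclimatized for 7 days before the experiment. In SAP rats, a 3% sodium taurocholate solution was pushed backwards into the pancreatic duct at 0.1 mL per 100 g, followed by a clamp of 5 min, whereas CON rats had the abdomen opened without infusion. Both groups had pentobarbital anaesthesia, water but no food after surgery, and a cycle of 12 h of light and 12 h of dark before it, and the ileum was taken 24 h after induction. The time of day of surgery and of sampling was not given in the sources used here, and each rat was sampled once. The phase of a clock needs several times of day, so it could not be measured, and the comparison below is of the levels of genes that peak at opposite times.

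In the clock of mammalian cells, BMAL1 pairs with CLOCK or with NPAS2 and switches on the Per, Cry and Nr1d genes through short DNA elements called E-boxes. PER and CRY proteins then block that pair, while the REV-ERB proteins repress Bmal1, Npas2 and Clock through ROR elements (ROREs), so that Bmal1 and Npas2 RNA are high when Nr1d1 RNA is low. In the intestine the clock is known to follow feeding times as well as light, and glucocorticoid hormones are known to induce Per1 and Per2.

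The letters of these elements were searched for in the promoters of the members, and matches that belong to the main loops are shown here, read from RefSeq on build GRCr8, whereas the counts were made on mRatBN7.2. A window of 250 bases before a gene start was found for 9 of the 10 members. Capitals mark the element. The Bmal1 stretch (chr1:176766299-176766327, plus strand) holds a RORE 19 bases before the start, the element that REV-ERB proteins bind. The Per2 stretches hold an E-box of the form CACGTT, 62 bases before the start (chr9:99497038-99497067, minus strand), and a D-box, the element bound by DBP, TEF, HLF and NFIL3, 192 bases before it (chr9:99497167-99497196, minus strand). The Nr1d1 stretch (chr10:84229628-84229657, minus strand) comes from the second of its 2 windows and holds an E-box CACGTG 191 bases before the start. The Cry2 stretch (chr3:98860632-98860661, minus strand) holds CACGTT on the other strand, 212 bases before the start.
Bmal1 RORE: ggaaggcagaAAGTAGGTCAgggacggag
Per2 E-box: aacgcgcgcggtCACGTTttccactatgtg
Per2 D-box: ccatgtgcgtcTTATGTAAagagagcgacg
Nr1d1 E-box: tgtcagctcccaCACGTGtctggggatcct
Cry2 E-box: acacatggtgggAACGTGagggggcggggc

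Elements were searched on both strands of the 250 bases. CACGTG was in 5.59% of the 33469 windows of all genes and CACGTT in 4.07%. The D-box TTATGTAA was in 0.828% and the RORE, AGGTCA after an A, any 2 bases and a T, in 0.586%, whereas AGGTCA alone was in 14.1%. Of the 9 members with a window, 1 held CACGTG (Nr1d1), 3 held CACGTT (Cry2, Nr1d1 and Per2), 1 held TTATGTAA (Per2) and 1 held the RORE (Bmal1). A match describes the letters of the window and does not show that a factor bound there.

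In all, 40970 nuclei passed the study's thresholds, from 3189 to 9246 per library, with 5549260 to 28771508 UMIs per library. The CON2 and SAP1 libraries (replicate 2 of CON and replicate 1 of SAP) listed barcodes under 1000 UMIs, which the other 4 did not. Clustering gave 23 clusters, of which 19 fell into 16 named classes and 4 stayed unnamed, and in every named class each of its markers found in the tables was higher than in the other nuclei. Enterocytes, the absorptive cells of the villus, made up 17.4%, 21.2% and 19.1% of nuclei in CON1 to CON3 and 35.3%, 46.4% and 16.4% in SAP1 to SAP3, whereas stem and transit-amplifying (stem/TA) nuclei of the crypt averaged 15.4% ± 3.83 (SD, n = 3) in CON and 8.18% ± 3.58 (SD, n = 3) in SAP. The sum over all nuclei therefore cannot tell a different level per nucleus from a different mix of cells. For the members, Bhlhe40 and Wee1, values with the mix held fixed are given beside it.

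The first comparison asked whether the clock genes differed between SAP and CON over all nuclei. In edgeR's quasi-likelihood test, 0 of the 10 members were called at a Benjamini-Hochberg adjusted p under 0.05 and a log2 fold change of at least 0.5 in size, beside 0 of 19187 genes (0.00%). At an unadjusted p under 0.05 there was 1 member, Npas2, and 8.43% of all genes. DESeq2 called none of the members and 0.687% of all genes. The log2 fold change was above 0 for 7 members and below 0 for 3, with a median of 0.21 beside 0.025 over all genes. Levels below are counts per 1000000 UMIs (CPM) after TMM normalization, which scales each library by its own total and a composition factor.

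**Figure D1:**
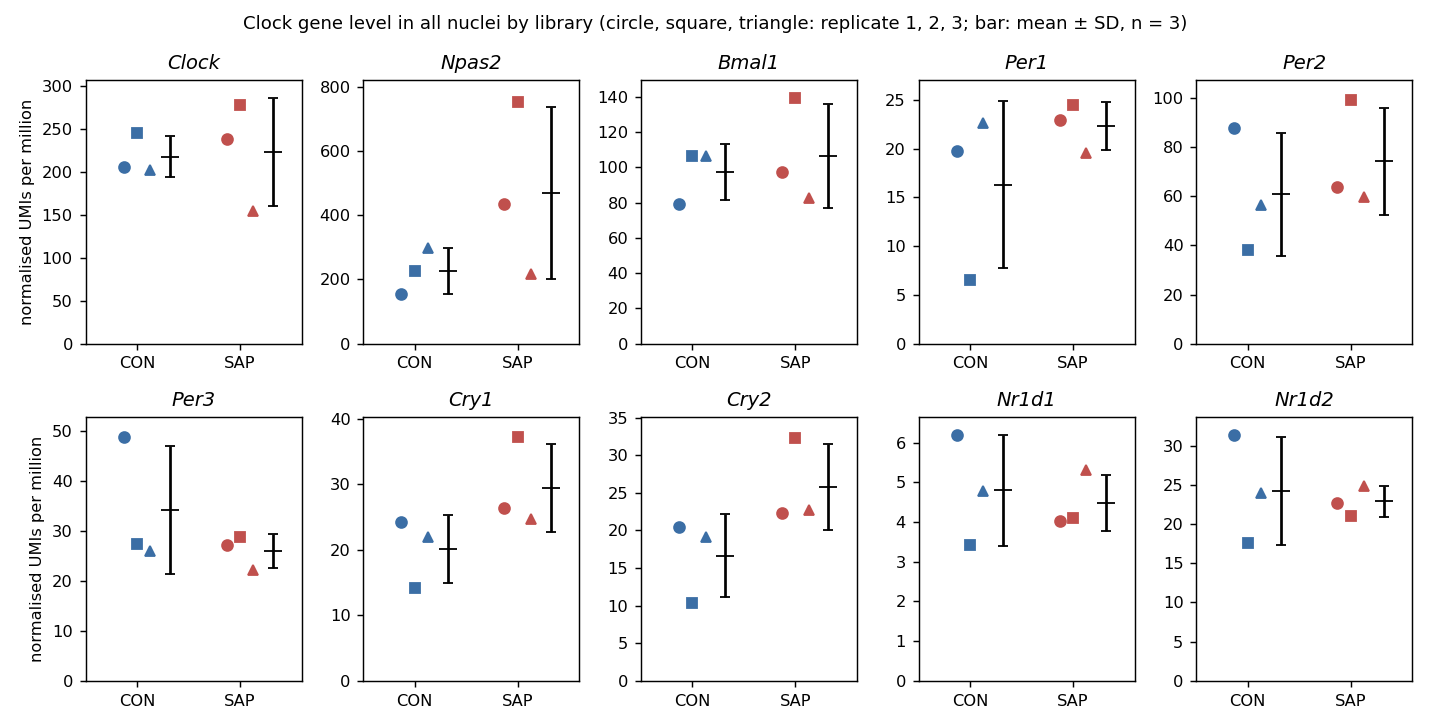
Level of each clock gene in all nuclei (vertical axis, normalised CPM from 0) for the 3 CON and 3 SAP libraries, with circles, squares and triangles for replicates 1, 2 and 3 and a bar for the mean ± SD (n = 3). The square of SAP2 is the highest point in 7 of the 10 panels and the square of CON2 the lowest in 6, and the groups are apart only for Cry1 and Cry2.

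Among the activators, Npas2 had the largest difference. Npas2, a partner of BMAL1 that can stand in for CLOCK, was at 153, 225 and 297 CPM in CON1 to CON3 and at 437, 754 and 218 CPM in SAP1 to SAP3. SAP1 and SAP2 lay above every CON library, and SAP3 lay inside the CON range. The log2 fold change was 1.06 ± 0.46 (SE; 95% interval 0.01 to 2.11) with an adjusted p of 0.586 by edgeR. Without SAP replicate 2 it was 0.53, and with the mix of classes held fixed it was 0.77 (exact permutation test, two-sided p = 0.2, where 3 against 3 can give no less than 0.1). The same SAP1 and SAP2 libraries held the larger shares of enterocytes. The summed level of the 10 enterocyte markers was 968 to 2054 CPM in CON and 1725 to 4413 CPM in SAP, all 10 had the higher mean in SAP, and Alpi was at 0 in at least 1 library. Its part in the Npas2 difference was not tested beyond the value with the mix held fixed. That value took the enterocytes as 1 class, so the mix of enterocyte clusters 1, 5 and 6, described below, was not held fixed. Cluster 6 averaged 3.12% ± 1.06 (SD, n = 3) of nuclei in CON and 8.72% ± 4.21 (SD, n = 3) in SAP. Npas2 averaged 1295 CPM in cluster 6 and 511 CPM in cluster 1. Within the clusters, the Npas2 means of CON and SAP were 324 and 698 CPM in cluster 1, 778 and 1171 CPM in cluster 5, and 1045 and 1545 CPM in cluster 6. The groups overlapped in each of these clusters, and these differences were not tested.

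For Bmal1 and Clock the estimates were near 0 with wide intervals. Bmal1, the shared partner of both activators, was at 79.2, 106 and 106 CPM in CON and at 97.2, 139 and 82.6 CPM in SAP. The ranges overlapped, with the lowest value in CON1 and the highest in SAP2. Its log2 fold change was 0.13 ± 0.27 (SE; 95% interval -0.49 to 0.74), so that levels in SAP from 0.71-fold to 1.67-fold those of CON were within the interval. Clock, the other activator, was at 206, 245 and 203 CPM in CON and at 238, 278 and 155 CPM in SAP, the SAP range enclosing that of CON. It averaged 218 ± 23.7 CPM (SD, n = 3) in CON and 224 ± 62.9 CPM (SD, n = 3) in SAP, with a log2 fold change of 0.038 ± 0.27 (SE). With the mix of classes held fixed, the log2 ratio was 0.018 for Bmal1 and -0.054 for Clock.

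The period genes did not share a direction. Per1, which responds quickly to hormones and other signals, was at 19.8, 6.57 and 22.6 CPM in CON and at 23.0, 24.4 and 19.6 CPM in SAP. CON2 alone lay far below the other 5 libraries. The log2 fold change of Per1 was 0.45 ± 0.45 (SE) and came to 0.063 without CON replicate 2. Per2, its close relative, was at 87.9, 38.3 and 56.5 CPM in CON and at 63.8, 99.3 and 59.9 CPM in SAP, overlapping ranges with CON2 again lowest, and its log2 fold change of 0.29 ± 0.35 (SE) came to 0.018 without CON replicate 2. Per3 was at 48.9, 27.5 and 26.0 CPM in CON and at 27.2, 28.8 and 22.2 CPM in SAP. Here CON1 stood above the rest, and the log2 fold change of -0.39 ± 0.32 (SE) came to -0.012 without CON replicate 1. Holding the mix of classes fixed gave log2 ratios of 0.72 for Per1, 0.37 for Per2 and -0.36 for Per3, with overlapping groups.

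The cryptochromes were the members whose groups did not overlap. Cry1 was at 24.2, 14.2 and 22.0 CPM in CON and at 26.4, 37.2 and 24.7 CPM in SAP. Cry2 was at 20.5, 10.3 and 19.2 CPM in CON and at 22.3, 32.3 and 22.7 CPM in SAP. For both genes every SAP library was above every CON library, although the nearest pair differed little, 24.2 in CON1 against 24.7 in SAP3 for Cry1. Such a separation upward was found for 2 of 10 members and for 4.90% of all genes, a separation downward for no member and 9.06% of all genes, and either for 14.0% of all genes. The log2 fold change was 0.55 ± 0.32 (SE; 95% interval -0.18 to 1.27; adjusted p = 0.696 by edgeR) for Cry1 and 0.63 ± 0.35 (SE; 95% interval -0.17 to 1.43; adjusted p = 0.679 by edgeR) for Cry2. Both estimates leaned on the low CON2 library and came to 0.33 for Cry1 and 0.36 for Cry2 without CON replicate 2. With the mix of classes held fixed, the groups stayed apart for Cry2 only by a near tie, 24.72 CPM in CON1 against 24.73 CPM in SAP1 (log2 ratio 0.55, exact permutation p = 0.1). They overlapped for Cry1 (0.48, exact permutation p = 0.3). Within the libraries that listed barcodes under 1000 UMIs, CON2 and SAP1, Cry1 was at 14.2 against 26.4 CPM, and among the other 4 it was at 22.0 and 24.2 against 24.7 and 37.2 CPM.

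For the REV-ERB genes the estimates were also near 0. Nr1d1, whose RNA swings widely over the day in many tissues, was at 6.19, 3.41 and 4.79 CPM in CON and at 4.04, 4.11 and 5.31 CPM in SAP, from 19 to 139 UMIs per library. Nr1d2 was at 31.3, 17.6 and 23.9 CPM in CON and at 22.7, 21.0 and 24.9 CPM in SAP. For both genes the SAP range lay wholly inside the CON range. The log2 fold change was -0.093 ± 0.39 (SE; 95% interval -0.996 to 0.81) for Nr1d1 and -0.085 ± 0.30 (SE; 95% interval -0.77 to 0.60) for Nr1d2. For Nr1d1, levels in SAP from 0.50-fold to 1.75-fold those of CON were thus within the interval. With the mix of classes held fixed, the log2 ratio was -0.27 for Nr1d1 and -0.16 for Nr1d2, with overlapping groups.

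**Figure D2:**
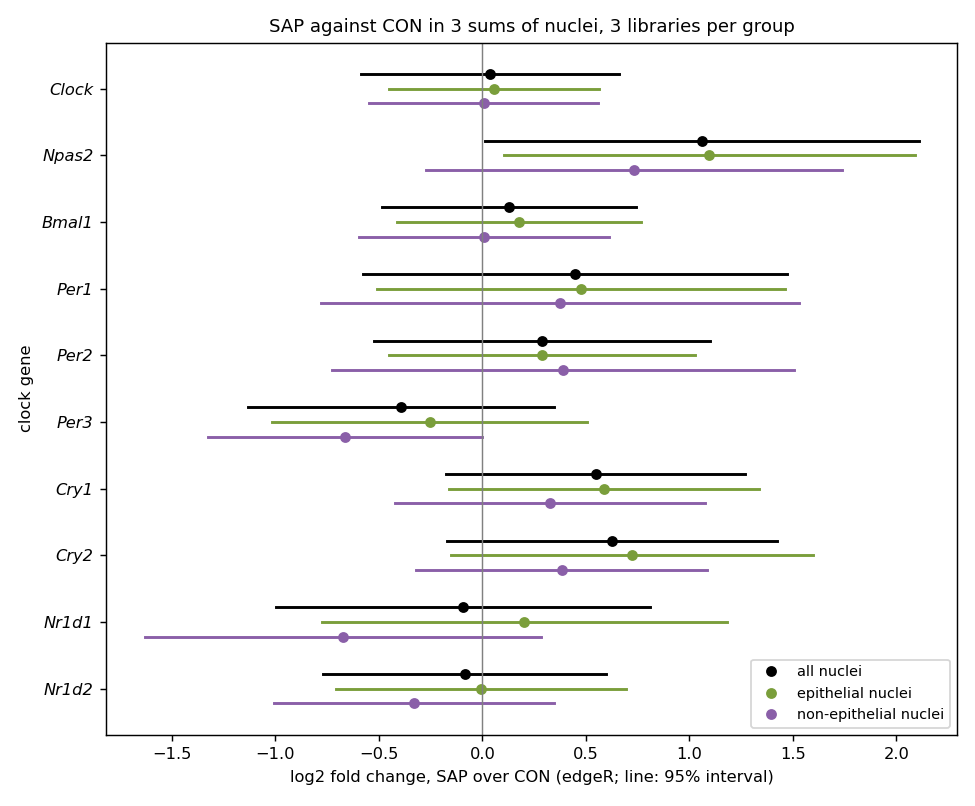
Log2 fold change of SAP over CON (horizontal axis, edgeR) for each clock gene in all, epithelial and non-epithelial nuclei, with points for the estimate and lines for the 95% interval, 3 libraries per group. The interval leaves out 0 only for Npas2 in all and in epithelial nuclei, before any adjustment for the number of genes tested.

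The same rats were at the ends of the range for most members. The lowest library was CON2 for 6 of the 10 members (Per1, Per2, Cry1, Cry2, Nr1d1 and Nr1d2) and the highest was SAP2 for 7 (Clock, Bmal1, Npas2, Per1, Per2, Cry1 and Cry2), whereas CON2 was lowest for 15.6% and SAP2 highest for 22.6% of all genes tested. CON1 was the highest for the other 3 (Per3, Nr1d1 and Nr1d2). Within CON the highest library exceeded the lowest 3.44-fold for Per1, 2.30-fold for Per2 and 1.81-fold for Nr1d1, and within SAP 1.25-fold, 1.66-fold and 1.31-fold. On the log2 scale the SD was wider in CON than in SAP for 7 of the 10 members, the exceptions being Clock, Bmal1 and Npas2.

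These orders were seen inside cell classes to an uneven degree. Per1 was lowest in CON2 in 10 of the 10 classes in which it was tested, Per2 in 11 of 14, Cry1 in 10 of 12, Cry2 in 7 of 9 and Nr1d2 in 6 of 10. SAP2 was the highest library for Npas2 in 16 of 16 classes, for Per2 in 10 of 14, for Clock in 9 of 16, for Bmal1 in 9 of 15, for Cry1 in 6 of 12, for Per1 in 5 of 10 and for Cry2 in 4 of 9. Bmal1, lowest in CON1 over all nuclei, was lowest in SAP1 in 9 of 15 classes. Over the 117 tests of a member in a class, CON2 was lowest in 47.0% and SAP2 highest in 52.1%. The shares of all genes given above are for all nuclei, and none was taken over gene and class pairs. Whether these orders are particular to the clock genes was therefore not tested. The classes of a library come from the same rat and the same preparation, so they are not independent.

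Epithelial and non-epithelial nuclei were then tested apart, each as 1 sum per library. In epithelial nuclei 0 of 10 members were called by edgeR, beside 0.00% of 16829 genes, with 1 member and 11.4% of all genes at an unadjusted p under 0.05 and no member called by DESeq2 (1.01% of all genes). In non-epithelial nuclei 0 of 10 members were called by edgeR, beside 0.00% of 17065 genes, with no member and 7.17% of all genes at an unadjusted p under 0.05 and no member called by DESeq2 (0.351% of all genes). Only Cry1 was apart in epithelial nuclei, with SAP higher (13.4 to 24.2 CPM in CON and 26.2 to 39.8 CPM in SAP), beside 6.78% of genes apart upward, 12.5% downward and 19.3% either way. Npas2 had a log2 fold change of 1.10 ± 0.43 (SE) in epithelial and of 0.73 ± 0.44 (SE) in non-epithelial nuclei. Both leaned on SAP2. Without SAP replicate 2 the epithelial value was 0.65 and the non-epithelial one, where SAP2 was at 585 CPM against 138 to 252 CPM in the other 5 libraries, was 0.037. Per3 in non-epithelial nuclei was at 63.2, 37.7 and 42.4 CPM in CON and at 36.7, 26.2 and 29.4 CPM in SAP. These groups did not overlap, and the log2 fold change was -0.66 ± 0.29 (SE) with an adjusted p of 0.695 by edgeR, and -0.38 without CON replicate 1. Nr1d1 in non-epithelial nuclei was at 8.01, 7.87 and 7.94 CPM in CON and at 2.62, 4.63 and 6.35 CPM in SAP, also apart, with a log2 fold change of -0.67 ± 0.42 (SE; adjusted p = 0.801 by edgeR). These Nr1d1 values rest on 200 UMIs in all, with 2 in SAP1, 15 in SAP2 and 14 in CON2. In non-epithelial nuclei 7.13% of genes were apart downward, 4.85% upward and 12.0% either way. Whether the effect differed between the compartments was tested with limma on the difference within each library, which called 0 of 10 members and 0.00624% of 16023 genes. At an unadjusted p under 0.05 there were 2 members and 6.45% of genes. For Nr1d1 the epithelial effect was higher by 1.08 ± 0.44 (SE; adjusted p = 0.773 by limma), and for Npas2 by 0.48 ± 0.18 (SE; adjusted p = 0.773 by limma).

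Within the 16 classes that had at least 10 nuclei in every library, 117 of 160 member and class pairs passed the filter on low counts. Of these, 0 were called by edgeR, beside 0.00869% of 138153 gene and class pairs. At an unadjusted p under 0.05 there were 11 pairs (9.40%), beside 8.11% of all pairs, and DESeq2 also called 0 member pairs. The groups were apart in 15 pairs (12.8%), 11 with SAP higher and 4 with SAP lower, beside 14.1% of all pairs, 6.21% with SAP higher and 7.88% with SAP lower. Nr1d1 passed the filter in 1 class only, the enterocytes, and was not tested in the others.

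Some members kept one sign over classes. Npas2 was above 0 on the log2 scale in 16 of 16 classes, from 0.48 in smooth muscle cells (SMC) to 1.31 in the unnamed epithelial cluster 0, with a median of 0.75. SAP2, the library with the largest share of enterocytes, was its highest library in each of the 16. Carry-over of RNA between nuclei of a library was not tested. Cry1 was above 0 in 12 of 12 and Per1 in 10 of 10 classes, with medians of 0.44 and 0.52. Per2 was above 0 in 13 of 14. CON2 was the lowest library for Per1 in 10 of 10 classes, for Cry1 in 10 of 12 and for Per2 in 11 of 14. No share over all genes is set beside these counts of signs. Clock and Bmal1 were divided, with 9 of 16 and 9 of 15 classes above 0 and medians of 0.033 and 0.0080, and Per3 was below 0 in 9 of 14. As the same 6 rats gave every class, a shared sign is one observation and not several.

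The pairs with the smallest p were Cry1 in cluster 9, an unnamed epithelial cluster whose leading genes include Gfra4 and Habp2 and in which Lgr5 is high, and Per3 in smooth muscle. Cry1 in cluster 9 was at 19.5, 19.1 and 29.2 CPM in CON and at 77.8, 45.3 and 70.2 CPM in SAP, on 97 UMIs in all. All SAP libraries were above all CON libraries, and the log2 fold change was 1.46 ± 0.37 (SE; adjusted p = 0.301 by edgeR). Per3 in smooth muscle was at 90.7, 48.8 and 82.6 CPM in CON and at 29.0, 38.5 and 31.2 CPM in SAP, on 200 UMIs. Here every SAP library was below every CON library, and the log2 fold change was -1.19 ± 0.36 (SE; adjusted p = 0.207 by edgeR). The smallest library held 83 nuclei in cluster 9 (SAP1) and 86 nuclei in smooth muscle (SAP2), so the SAP values rest on few UMIs. Neither pair was called, and both were picked out after their values were seen.

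The clock genes were not spread evenly over cell classes. Levels were compared over the 10 classes with at least 50 nuclei in every library, on one TMM scale for all classes and libraries, as means over the 6 rats. These are descriptions, without a test, and clock genes took no part in the clustering.

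**Figure D3:**
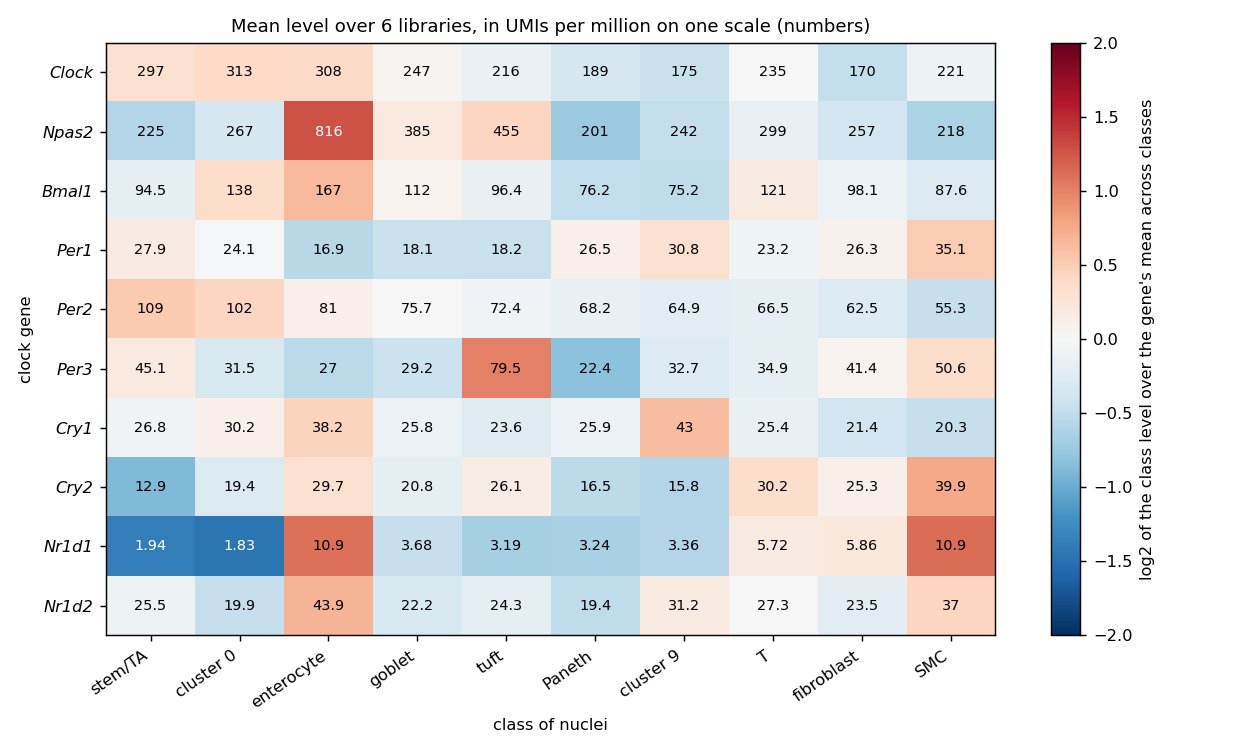
Mean level over 6 libraries of each clock gene (rows) in 10 classes of nuclei (columns), printed in CPM on one scale, with colour for the log2 of that level over the gene's own mean across the classes. Npas2 stands out in enterocytes (816), Per3 in tuft cells (79.5, the highest class in 3 of 6 libraries), and Nr1d1 in enterocytes and, on only 42 UMIs, in smooth muscle (both 10.9).

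Among the activators, Npas2 and Bmal1 were highest in enterocytes. Npas2 was at 816 ± 341 CPM (SD, n = 6) there, the highest class in 5 of 6 libraries, followed by tuft cells at 455 ± 161 and goblet cells at 385 ± 177, and it was lowest in Paneth cells at 201 ± 120. Bmal1 was at 167 ± 25.8 CPM (SD, n = 6) in enterocytes, also the highest class in 5 of 6 libraries, and lowest in cluster 9 at 75.2 ± 23.8. Clock varied least, from 313 ± 40.0 in cluster 0 to 170 ± 39.5 in fibroblasts, which was 1.84-fold. Its highest class was cluster 0 in 1 of 6 libraries, enterocytes in 2 and stem/TA nuclei in 3.

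The period genes were ordered otherwise. Per2 was highest in stem/TA nuclei at 109 ± 29.4 CPM (SD, n = 6), in 4 of 6 libraries, and in cluster 0 in the other 2, and lowest in smooth muscle at 55.3 ± 32.5. Per1 had its highest mean in smooth muscle at 35.1 ± 15.8 and its lowest in enterocytes at 16.9 ± 7.05. Smooth muscle was its highest class in only 1 of 6 libraries, against 2 each for cluster 9 and stem/TA nuclei. Per3 was highest in tuft cells, chemosensory cells of the epithelium, at 79.5 ± 33.9, ahead of smooth muscle at 50.6 ± 26.2. Tuft cells were the highest class in 3 libraries and smooth muscle in the other 3. That order pools groups whose estimates went opposite ways. The log2 fold change of Per3 in SAP over CON was -1.19 in smooth muscle and 0.67 in tuft cells, neither of them called.

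Of the repressors, Cry1 was at 43.0 ± 22.4 CPM (SD, n = 6) in cluster 9 and at 38.2 ± 14.3 in enterocytes, each the highest class in 2 of 6 libraries, and cluster 9 was above enterocytes in 3 of 6. That order differed between the groups, with means of 24.4 CPM in cluster 9 and 30.4 in enterocytes over the CON libraries and 61.6 and 46.1 over the SAP libraries. Cry2 was highest in smooth muscle at 39.9 ± 13.8 and lowest in stem/TA nuclei at 12.9 ± 5.96. Nr1d1 was at 10.9 ± 9.04 in smooth muscle, on 42 UMIs and from 0 to 21.1 over libraries, and at 10.9 ± 5.78 in enterocytes on 176 UMIs. It was at 1.94 ± 1.82 in stem/TA nuclei on 15 UMIs and 1.83 ± 1.23 in cluster 0 on 21 UMIs. Nr1d2 followed Nr1d1 at the top, with 43.9 ± 22.9 in enterocytes and 37.0 ± 14.1 in smooth muscle. For no gene did neighbours in the order of classes have ranges over libraries that were apart.

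Along the epithelium, from the crypt to the enterocytes, the members differed in direction, described here without a test. The enterocytes fell into clusters 1, 5 and 6, and the villus tip genes Apoa4 and Ada averaged 125 and 37.6 CPM in cluster 1, 214 and 42.0 CPM in cluster 5 and 2045 and 698 CPM in cluster 6, with a wide spread over the libraries (SD 1588 and 648 CPM in cluster 6, n = 6). Npas2 was at 225 ± 88.1 CPM (SD, n = 6) in stem/TA nuclei, 511 ± 289 in cluster 1, 974 ± 320 in cluster 5 and 1295 ± 471 in cluster 6, where it was 5.76-fold the stem/TA level and higher in 6 of 6 libraries. Per2 went the other way, at 109 ± 29.4, 92.5 ± 28.1, 75.4 ± 36.0 and 56.5 ± 19.3, and was lower in cluster 6 than in stem/TA nuclei in 6 of 6 libraries. Clock was also lower in cluster 6, at 190 ± 49.4 against 297 ± 39.6 in stem/TA nuclei, but not in cluster 1 (353 ± 36.2) or cluster 5 (304 ± 56.0).

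Nr1d1 peaked in cluster 5, which is led by Fgf19 and the bile acid transporter gene Slc10a2. It was at 17.1 ± 9.13 CPM (SD, n = 6) in cluster 5, 8.34 ± 4.65 in cluster 1 and 8.33 ± 2.75 in cluster 6, above the stem/TA level in 6 of 6 libraries in each. Over the 6 libraries Cry2 also had its highest mean in cluster 5, at 39.9 ± 16.0 against 12.9 ± 5.96 in stem/TA nuclei, and was above the stem/TA level in 5 of 6 libraries. That peak was seen in CON, with means of 17.5, 46.7 and 25.3 CPM in clusters 1, 5 and 6. In SAP the means were close to each other, at 30.7, 33.0 and 32.3 CPM. Cry1 was 2.32-fold the stem/TA level in cluster 6, higher in 6 of 6 libraries, and 0.96-fold in cluster 1 and 1.51-fold in cluster 5. Bmal1 was not particular to cluster 6. It was 1.46-fold the stem/TA level in cluster 0, 1.72-fold in cluster 1, 1.79-fold in cluster 5 and 1.70-fold in cluster 6, each higher in 6 of 6 libraries.

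**Figure D4:**
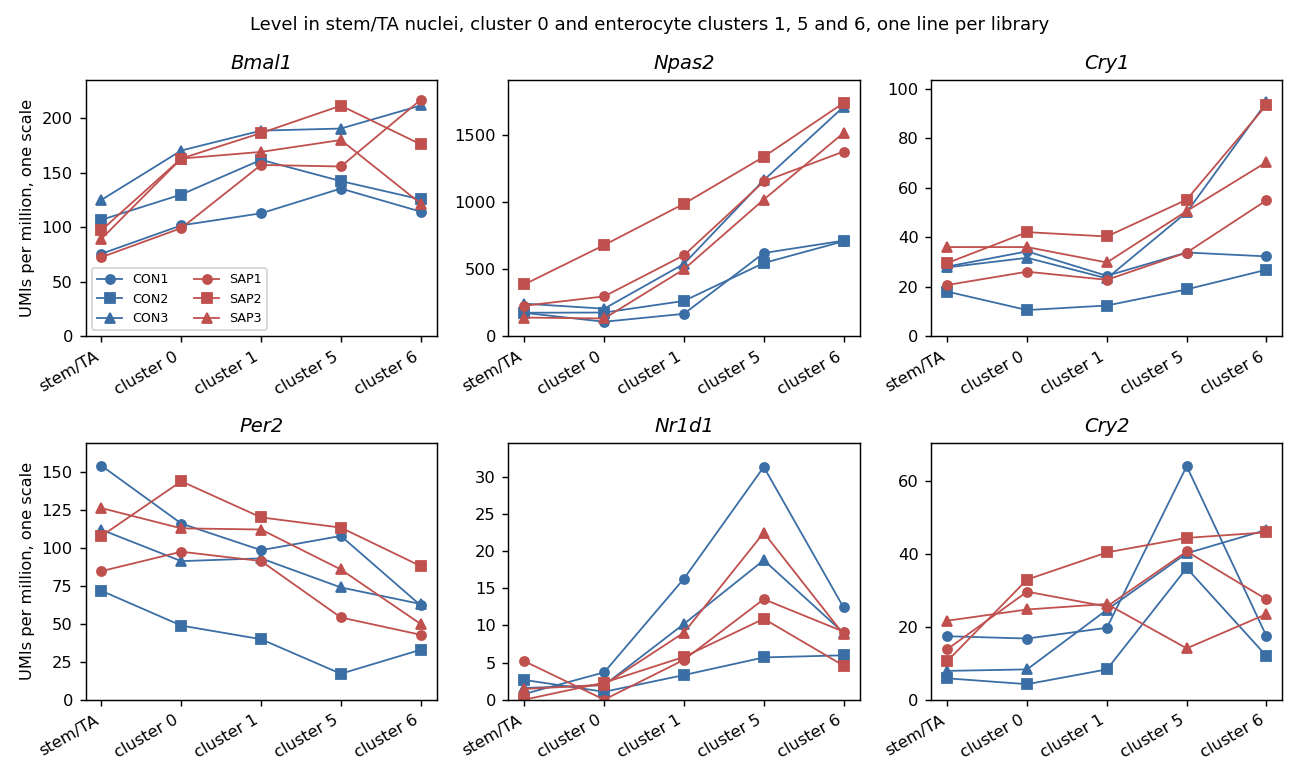
Level of 6 clock genes (vertical axis, CPM on one scale) in stem/TA nuclei, cluster 0 and enterocyte clusters 1, 5 and 6 (horizontal axis), with a line for each CON (blue) and SAP (red) library. Every line for Npas2 ends higher than it starts and every line for Per2 ends lower, in both groups.

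To set the opposite limbs of the clock against each other, a clock index was taken as the mean log2(CPM + 1) of Bmal1, Npas2 and Clock less that of Nr1d1, Nr1d2, Per1, Per2 and Per3. It places rats relative to each other and is not a time. In all nuclei it was 2.23, 3.62 and 3.08 in CON1 to CON3 and 3.30, 3.67 and 2.71 in SAP1 to SAP3. The SAP values lay inside the CON range but for SAP2, which was above CON2 by less than the difference between any 2 CON rats. The mean was 2.98 ± 0.70 (SD, n = 3) in CON and 3.23 ± 0.48 (SD, n = 3) in SAP, a difference of 0.25 in log2 units that was smaller than either SD. It was -0.12 without CON replicate 1, 0.57 without CON replicate 2 and -0.042 without Npas2.

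**Figure D5:**
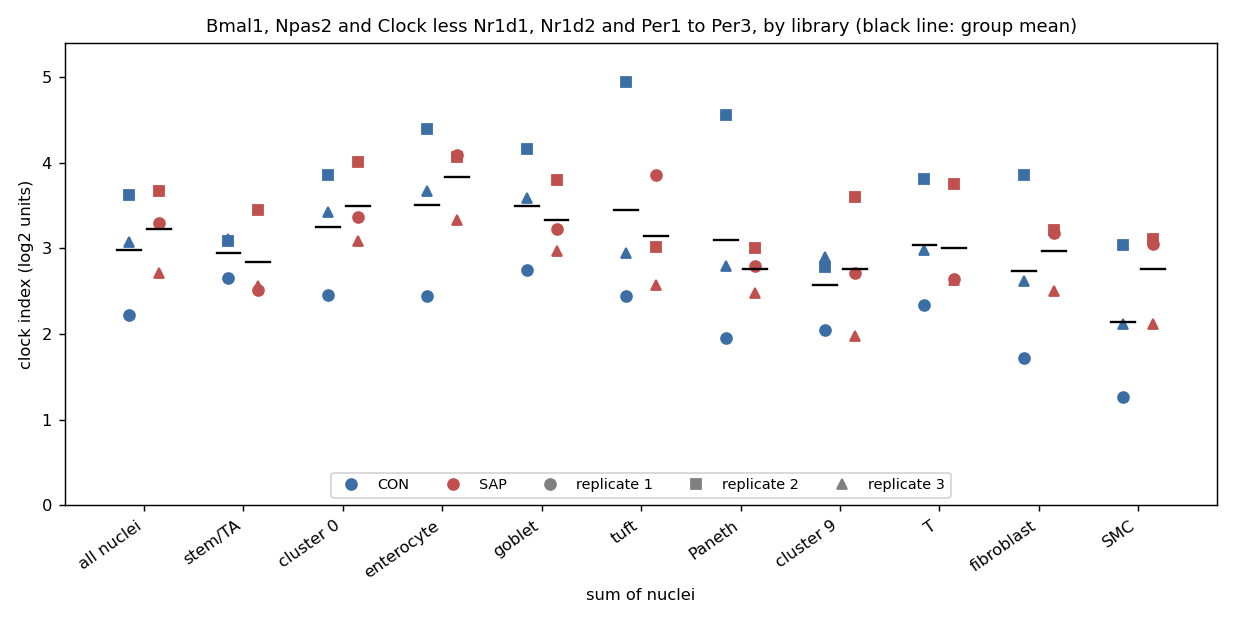
Clock index (vertical axis, log2 units) in all nuclei and in 10 classes, with a point for each library, blue for CON and red for SAP, circles, squares and triangles for replicates 1 to 3, and a black line for each group mean. CON and SAP points overlap in every column, and the blue circle of CON1 is the lowest point in 8 of the 10 classes.

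The same rats were at the ends of the index in most classes. CON1 was the lowest library in 8 of 10 classes, and CON2 was the highest in 6 and SAP2 in the other 4. The groups overlapped in each of the 10 classes. The mean was higher in SAP in 5 of them, the most in smooth muscle, at 2.76 against 2.14, and lower in the other 5, the most in Paneth cells, at 2.76 against 3.10. Single CON libraries weighed on both means, with CON1 to CON3 at 1.26, 3.04 and 2.12 in smooth muscle and at 1.96, 4.56 and 2.79 in Paneth cells. The index genes together had as few as 79 UMIs in a library of cluster 9, 88 in fibroblasts, 97 in smooth muscle, 109 in tuft cells and 208 in Paneth cells. Nr1d1 alone had 11 UMIs in all in cluster 9, 14 in tuft cells, 15 in stem/TA nuclei and 21 in Paneth cells, and reached 0 in a library of each. Per1 reached 0 in Paneth cells and fibroblasts, and Nr1d2 in tuft cells. A 0 in that limb raises the index, so the orders within such classes rest on few counts.

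Whether Bmal1 stood opposite to the genes of the other limb from rat to rat was asked over the 6 libraries. The Pearson correlation with Bmal1 in log2 CPM was -0.67 for Nr1d1 (exact permutation p = 0.135, adjusted 0.337 over 5 relations; Spearman's rho -0.54, exact p = 0.297) and -0.66 for Nr1d2 (exact permutation p = 0.135, adjusted 0.337; rho -0.71, exact p = 0.136). It was 0.021 for Per1 (exact p = 0.967, adjusted 0.967; rho 0.49, exact p = 0.356), 0.13 for Per2 (exact p = 0.804, adjusted 0.967; rho -0.029, exact p = 1) and -0.30 for Per3 (exact p = 0.546, adjusted 0.910; rho -0.029, exact p = 1). The adjusted p of rho was 0.593 for Nr1d1, Nr1d2 and Per1 and 1 for Per2 and Per3. Without CON1 and SAP2, the rats farthest from the median of Bmal1, r was -0.65 for Nr1d1, -0.58 for Nr1d2, -0.37 for Per1, -0.52 for Per2 and 0.88 for Per3. None of the 5 relations passed the test, and 3 rats per group are too few to test one within a group. In epithelial nuclei r was -0.43 for Nr1d1 (exact permutation p = 0.368) and with the mix of classes held fixed -0.27 (exact permutation p = 0.535).

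Of the genes that the clock drives directly, 0 of the 9 tested were called by edgeR, with 2 at an unadjusted p under 0.05 (8.43% of all genes), Bhlhe40 and Wee1, 7 were above 0 and the median log2 fold change was 0.065 beside 0.025 over all genes. Bhlhe40, a repressor that competes for E-boxes and also answers to low oxygen and stress, was at 11.04, 11.7 and 15.9 CPM in CON and at 33.4, 54.3 and 24.9 CPM in SAP. Its groups did not overlap, and the log2 fold change was 1.54 ± 0.36 (SE; 95% interval 0.72 to 2.37; adjusted p = 0.545 by edgeR), 1.17 without SAP replicate 2 and 1.64 with the mix of classes held fixed (exact permutation p = 0.1). DESeq2 called it, with an adjusted p of 0.0212. Its groups were apart in 8 of the 10 classes in which it was tested, in each with SAP higher, beside 6.21% of all gene and class pairs. The same 6 rats gave every class, and SAP2 was the highest library in each of the 10, so these are not independent observations. Wee1, a kinase that holds back entry into mitosis, went the other way, at 50.6, 50.5 and 23.4 CPM in CON and at 14.5, 7.86 and 29.9 CPM in SAP. Its ranges overlapped, with SAP3 above CON3, and the log2 fold change was -1.24 ± 0.52 (SE; adjusted p = 0.579 by edgeR), from -1.91 to -0.87 when each library was left out. With the mix of classes held fixed, the log2 ratio of Wee1 was -1.32 (exact permutation p = 0.2). Wee1 was below 0 in 12 of the 13 classes in which it was tested, with the groups apart in none.

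The D-box factors differed less. Dbp, the textbook output of the clock, was at 7.30, 1.79 and 3.38 CPM in CON and at 5.10, 3.47 and 4.36 CPM in SAP, the SAP range lying inside the CON range, with a log2 fold change of 0.031 ± 0.55 (SE). Tef was at 0.44 ± 0.45 (SE), Hlf at 0.065 ± 0.59 (SE) and Nfil3, which opposes them at the D-box, at 0.57 ± 0.35 (SE) on the same log2 scale. Tef came to 0.091 without CON replicate 2 and Nfil3 to 0.17 without SAP replicate 2. Ciart, a further repressor, was at 0.046 ± 0.47 (SE), and Bhlhe41 was too low to be tested, with 47 UMIs.

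Of 17 regulators of the clock, 0 were called by edgeR or DESeq2, with 3 at an unadjusted p under 0.05 by edgeR (8.43% of all genes), 9 were above 0 and the median log2 fold change was 0.020. Rora encodes an activator that shares the RORE with the REV-ERB proteins. It was at 48.1, 43.8 and 101 CPM in CON and at 37.6, 26.7 and 81.3 CPM in SAP (log2 fold change -0.40 ± 0.48, SE), overlapping. The 3 at an unadjusted p under 0.05 were Prkaa1, Prkaa2 and Timeless, and they differed in direction. Prkaa1 and Prkaa2 encode alternative catalytic subunits of the energy sensor AMPK. Prkaa1 was at 43.9 ± 4.64 CPM (SD, n = 3) in CON against 81.2 ± 27.6 in SAP (log2 fold change 0.89, and 0.58 without SAP replicate 2), whereas Prkaa2 was at 62.7 ± 11.5 against 40.6 ± 8.96 (log2 fold change -0.63 ± 0.27, SE). Timeless, known for its part in DNA replication, was at 93.9 ± 45.2 against 42.1 ± 16.5 (log2 fold change -1.16 ± 0.43, SE). Stem/TA nuclei averaged 15.4% of nuclei in CON and 8.18% in SAP, and the part of that mix in the Timeless difference was not tested. The groups were apart for 2 of the 17, Prkaa1 upward and Gsk3b, a kinase of clock proteins, downward at 250 ± 23.8 against 206 ± 13.2, beside 14.0% of all genes, and they overlapped for Prkaa2 and Timeless. In epithelial nuclei 2 of the 17 were apart upward, Prkaa1 and Csnk1d, and 2 downward, Prkaa2 and Gsk3b. The shares of all genes there were 6.78% upward and 12.5% downward. Prkaa2 was at 62.2 ± 6.59 CPM in CON against 39.8 ± 6.09 in SAP, and Csnk1d at 265 ± 30.2 against 383 ± 112.

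Lists of signals known to reset clocks were set beside the members. None of their genes was called by edgeR in all nuclei, with 2 glucocorticoid, 3 fasting and 5 immediate early genes at an unadjusted p under 0.05, beside 8.43% of all genes. Of 7 genes of the glucocorticoid response, the receptor included, 2 were apart, both higher in SAP: Fkbp5 at 104 ± 29.6 CPM (SD, n = 3) against 228 ± 17.0 and Tsc22d3 at 11.2 ± 2.53 against 16.8 ± 4.19. The 2 at an unadjusted p under 0.05 were Fkbp5 and Sgk1, and the groups overlapped for Sgk1. The median log2 fold change of the 7 was 0.58, with 5 above 0 and 2 below, Klf9 (-0.069) and the receptor gene Nr3c1 (-0.19). Of 5 genes of fasting and fat oxidation, 4 were apart and higher in SAP, namely Pdk4, Cpt1a, Angptl4 and Acadl, and the median log2 fold change was 0.90. Of 8 immediate early genes, 4 were apart and higher in SAP, namely Jun, Junb, Egr1 and Atf3, with a median of 1.22. DESeq2 called 4 of these genes in all nuclei, Angptl4, Jun, Junb and Egr1, beside 0.687% of all genes. The share of all genes apart and higher in SAP was 4.90%. The lists were chosen with earlier results of these data known, so their counts beside such shares are a description and not a test. The median mitochondrial share of UMIs per nucleus, a sign of nucleus quality, was 0.700%, 0.125% and 0.218% in CON1 to CON3 and 1.84%, 1.29% and 0.387% in SAP1 to SAP3, higher in SAP but for SAP3, which was below CON1. In nuclei with at most 1% mitochondrial UMIs the log2 fold change was 1.09 for Jun, 1.28 for Junb and 1.80 for Egr1, beside 1.28, 1.41 and 1.97 in all nuclei, and that of Atf3 went from 1.27 to 0.44. The part of these genes in the levels of the clock genes was not tested.

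Likeness was measured among the 1829 genes tested in every class. Over 96 points, 16 classes by 6 libraries, with each class centred on its own mean, the genes whose log2 CPM went most with Bmal1 were Med15 (r = 0.78), Myo1e (0.72), Tnrc18 (0.71), Bicra (0.70) and Usp3 (0.69). For Nr1d1, which had 0 UMIs in 21 of the 96 points, they were Fbxl17 and Baz1b (both r = 0.52), Huwe1 and Bltp1 (both 0.51) and Foxn3 (0.49). For Npas2 they were Clec2h (r = 0.89), Muc13 (0.88) and Cdhr2, Myo1a and Naip6 (each 0.87). Over the 16 class means, the gene most like each member was Snapc3 for Clock (r = 0.91), Tmc5 for Npas2 (0.93), Adap1 for Bmal1 (0.93), Sik2 for Per1 (0.87), Fam120a for Per2 (0.93), Zmynd11 for Per3 (0.86), Hook2 for Cry1 (0.90), Osbpl9 for Cry2 (0.78), Asap1 for Nr1d1 (0.75) and Tango2 for Nr1d2 (0.81). These points share libraries and depth, so the values are a description.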

How the data were processed

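The authors counted UMIs per gene and nucleus with dnbc4tools and deposited whole-number count tables without normalization; the labels name Seurat 4.3.0 and build mRatBN7.2. The members and gene lists were chosen with earlier results of these data known. A barcode was kept as a nucleus from 1200 UMIs and 500 genes upward and with a mitochondrial share of no more than 5%, which left 40970 of 90461, more than the study's text states. Barcodes are running numbers, so the 20692 names found in more than 1 library are not shared nuclei. Scrublet's automatic threshold marked 0%, so in each library the top 5% by score were taken as doublets, kept in the main results and left out in an alternative.

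Nuclei were clustered on 2000 variable genes without any listed gene (30 components, a Harmony-type correction by library, Leiden at 0.8; scanpy 1.11.5, leidenalg 0.10.2) and named from markers. A cluster named Paneth that held Lgr5 was left unnamed after its genes were seen. Counts were summed per library and tested with edgeR 4.0.16 (TMM, quasi-likelihood; tested on simulated data), limma 3.58.1 for the difference between compartments and DESeq2 1.42.0 as an alternative, with p adjusted over all genes. Of the 20 classes, 16 had at least 10 nuclei in every library and were fitted. The class mix was held fixed by weighting class levels by pooled shares of nuclei, with the enterocytes as 1 class.

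Named were all members, Dbp, Tef, Hlf, Nfil3, Ciart, Bhlhe40, Bhlhe41 and Rora. Listed genes called or apart in all nuclei and the genes most like a member were named too. Wee1, Prkaa2, Timeless, Csnk1d, Sgk1, Klf9, Nr3c1, class pairs, enterocyte clusters, Apoa4 and Ada were picked after their values were seen. Some listed genes are not reported here and were left out of the counts and medians over lists. Counts of 2 libraries of one group differed by far more than sampling noise (chi-square per degree of freedom 41.6 to 295). Same-numbered CON and SAP libraries deviated together from their group means in all nuclei (correlation over genes 0.63, 0.23 and 0.47 for numbers 1, 2 and 3), which met the rule for pairing there; in epithelial nuclei number 2 was at 0.08. The labels give no reason for the pairing.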

Additional observations from a re-analysis of the deposited data

How the results depend on the processing

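The count of members called was 0 in all, epithelial and non-epithelial nuclei and in classes under DESeq2, RLE normalization, no filter on low counts, a covariate for the libraries listing barcodes under 1000 UMIs, doublets removed, at most 1% mitochondrial UMIs and a clustering resolution of 0.4, and it ranged from 0 to 0 when each library was left out. Not all of this was run for every class: at most 1% mitochondrial UMIs left 8 of the 16 classes with enough nuclei, and resolution 0.4 gave 15 classes of its own, 12 of them under a name or number also used in the main clustering, and no fit over all nuclei. The difference between compartments stayed at 0 of 10 without each library, at most 1% mitochondrial UMIs and with the block. The replicate block changed no call of a member: 0 were called in every sum and class, and Npas2 in all nuclei came to 0.96 (adjusted p = 0.425 by edgeR). In non-epithelial nuclei the block took the calls over all genes from 0 to 5, and it moved that count by over 1.5 times in 8 of the 16 classes, up in 7, from 1 to 74 in SMC and from 2 to 21 in cluster 9. The clock index difference, 0.25, was 0.17 for Bmal1 less Nr1d1, 0.37 without Per1, 0.24 with Nfil3, Dbp, Tef, Hlf and Ciart, 0.18 with the mix fixed and, chosen after seeing the data, -0.042 without Npas2; leaving out each library it ranged from -0.12 to 0.57.

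Signs turned for small log2 fold changes. With no filter on low counts, Clock was at -0.0097, Dbp at -0.028 and Ciart at -0.0039; with the mix fixed Clock was at -0.054; at most 1% mitochondrial UMIs put Nr1d2 at 0.078 and epithelial Per3 at 0.00985; without doublets Ciart was at -0.019. Leaving out each library in turn, the range was -0.15 to 0.24 for Clock, -0.11 to 0.28 for Bmal1, -0.31 to 0.15 for Nr1d1, -0.30 to 0.16 for Nr1d2, -0.36 to 0.73 for Dbp, -0.51 to 0.67 for Hlf, -0.20 to 0.33 for Ciart, -1.01 to 0.089 for Rora, -0.44 to 0.14 for epithelial Per3 and -0.062 to 0.53 for epithelial Nr1d1; it was 0.53 to 1.40 for Npas2. The cause was not tested. Depth limits Nr1d1 most, at 19 UMIs in its lowest library, and 3 rats per group leave intervals of about 1 log2 unit either side for Npas2. Each rat was sampled once, so a shift in phase and a change in level cannot be told apart.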
